A study of Rattus norvegicus with 19 samples.

Results

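The genes described here encode the proteins of the mitochondrial ribosome. They were chosen by name, as genes whose annotated symbol starts with Mrpl or Mrps followed by a number. By this rule 73 of the 14217 genes measured were members, 48 of the large ribosomal subunit and 25 of the small one. Each gene was represented by 1 probe set (a group of oligonucleotides on the array that reads 1 transcript), the brightest over all arrays among those naming that gene alone.

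The samples were left ventricles of male Dahl salt-sensitive rats (Harlan SS/Hsd), a strain whose blood pressure rises on salt, with 1 Affymetrix array per rat. All 19 rats ate a 6% NaCl diet from 6 weeks of age, so no group was on normal salt. The baseline group (n = 4) was untreated and taken at 11 weeks of age, after 5 weeks of that diet. The other groups stayed on the diet and were taken at 15 weeks of age, after 4 weeks of treatment. They received vehicle injections (n = 4), paricalcitol (n = 4), enalapril with vehicle injections (n = 3) or enalapril with paricalcitol (n = 4), here called the combination. Paricalcitol, a vitamin D analogue that acts on the receptor of that vitamin, was injected at 200 ng, 3 times a week. Enalapril, which blocks angiotensin-converting enzyme, came from an osmotic pump at 90 ug a day, a dose that the submitters' design text says was chosen so as not to lower blood pressure significantly. The pumps are described for the groups given enalapril, so pump and drug cannot be told apart.

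Mitochondria carry their own ribosomes, which translate the few proteins still encoded in mitochondrial DNA. Those proteins are core subunits of the respiratory chain and ATP synthase, on which the working heart depends for its energy. The ribosomal RNAs are made inside the mitochondrion, while the ribosomal proteins are encoded in the nucleus and imported. Some of these proteins have counterparts in bacterial ribosomes, and others are found in mitochondria alone.

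Levels are given as log2 of the quantile-normalized intensity plus 16, a scale on which equal steps are equal folds. Cardiomyocyte markers were bright on every array: the 7 measured had mean levels from 12.82 for Myh6 to 14.21 for Tnnt2. Of the 3 atrial markers, Sln was at the floor of 4 on all 19 arrays. Myl4 (mean 7.87) and Myl7 (mean 5.92) were at the floor on 0 arrays. The summed intensity of the 3 ran from 131 to 575 with paricalcitol and from 176 to 616 in the combination. All 73 members lay above the median level of all genes, from the 62nd percentile upwards, and 0 were at the floor on any array. The median member level was 9.96, against 7.07 for all genes. In whole tissue, fewer cells of a type and less RNA per cell cannot be told apart.

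The spread within a group differed between members. The median within-group SD was 0.15 for the members and 0.23 for all genes, whose median level was lower. In brighter lists it was smaller, at 0.11 for respiratory chain and ATP synthase subunits and 0.08 for cytosolic ribosomal proteins. Single members were more variable, with SDs of 0.53 for Mrps27 with paricalcitol and 0.49 for Mrps18a in the combination. Mrpl15, of the large subunit, had the brightest probe set (mean 11.48, SD 0.06 over 19 arrays), followed by Mrpl17 (11.44), Mrpl33 (11.19), Mrpl12 (10.89) and Mrpl37 (10.86). The dimmest were Mrps27, a small-subunit protein with RNA-binding repeats (mean 7.78, SD 0.33), Mrps18c (8.25), Mrpl14 (8.30), Mrps31 (8.40) and Mrpl46 (8.49). Brightness of different probe sets is not an order of abundance.

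No member passed the test for any difference among the 5 groups (limma's moderated F test, Benjamini-Hochberg adjusted p under 0.05), which 0.127% of all genes passed. The smallest adjusted p was 0.0971, for Mrpl49. There were, at an unadjusted p under 0.05, 17 of 73 members, or 23.3%, against 10.5% of all genes. By subunit these were 14 of 48 in the large and 3 of 25 in the small.

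The members varied together from array to array. Their score, the mean over the 73 genes of each gene's log2 deviation from its own mean over 19 arrays, was -0.08, 0.01, 0.07 and -0.10 on the baseline arrays (replicates 1 to 4) and -0.06, 0.06, -0.05 and 0.00 on the vehicle arrays. It was -0.14, 0.02, -0.02 and -0.20 with paricalcitol, 0.09, 0.07 and -0.02 with enalapril, and -0.06, 0.23, 0.15 and 0.06 in the combination. The groups overlapped, and the widest spread was within the combination, between replicates 1 and 2. On combination replicate 2 the level of 70 of the 73 members was above its own mean, and on combination replicate 3 of 62. On paricalcitol replicates 1 and 4 it was 9 and 8. After group means were removed, the correlation between members over the 19 arrays had a median of 0.37 over 2628 pairs of genes (quartiles 0.09 and 0.58), against a median of 0.00 over all genes above the median level. The pairs share the same arrays and normalization, so this is a description. Other mitochondrial genes moved on the same arrays. On combination replicate 2 the score was 0.26 for mitochondrial ribosomal proteins of other names and 0.19 for mitochondrial translation factors. It was 0.29 for mitochondrial aminoacyl-tRNA synthetases and 0.18 for respiratory chain and ATP synthase subunits. On paricalcitol replicate 4 these were -0.25, -0.28, -0.17 and -0.14. Cytosolic ribosomal proteins were at -0.08 and 0.04 on these arrays.

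The member score moved with the red cell markers in part of the arrays. The score of 5 red cell genes (Hbb, Alas2, Slc4a1, Ahsp, Slc25a37) was -0.65 and -1.09 on paricalcitol replicates 2 and 3, and -0.95 and -0.84 on combination replicates 2 and 3. On replicates 1 and 4 it was 0.37 and 0.55 with paricalcitol, and 0.51 and 0.55 in the combination. In both groups the 2 arrays with low red cell markers had the 2 higher member scores. In vehicle and with enalapril, the array of lowest red cell score also had the highest member score. These were vehicle replicate 2 (-0.37, member score 0.06) and enalapril replicate 1 (-0.51, member score 0.09). Enalapril replicate 2, with the highest red cell score of its group (0.55), had a member score of 0.07. At baseline the order was not the same, with the highest member score (0.07) beside the highest red cell score (0.75). The summed intensity of the red cell markers ranged from 14238 to 23526 with paricalcitol and from 13708 to 24751 in the combination, while the baseline range was 21321 to 23576, the vehicle range 19155 to 23325 and the enalapril range 16741 to 23953. Counts for the pairwise comparisons that include these 4 arrays are also given without them, an alternative chosen after seeing the data. The score of the atrial markers, with Sln at the floor throughout, also varied with the member score. In every group but vehicle, the array of highest atrial score had the lowest member score. Those atrial scores were 0.66 (baseline replicate 4), 0.72 (paricalcitol replicate 4), 0.26 (enalapril replicate 3) and 0.81 (combination replicate 1). In vehicle it was replicate 3 (0.16). The part of the atrial markers was not tested.

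**Figure D1:**
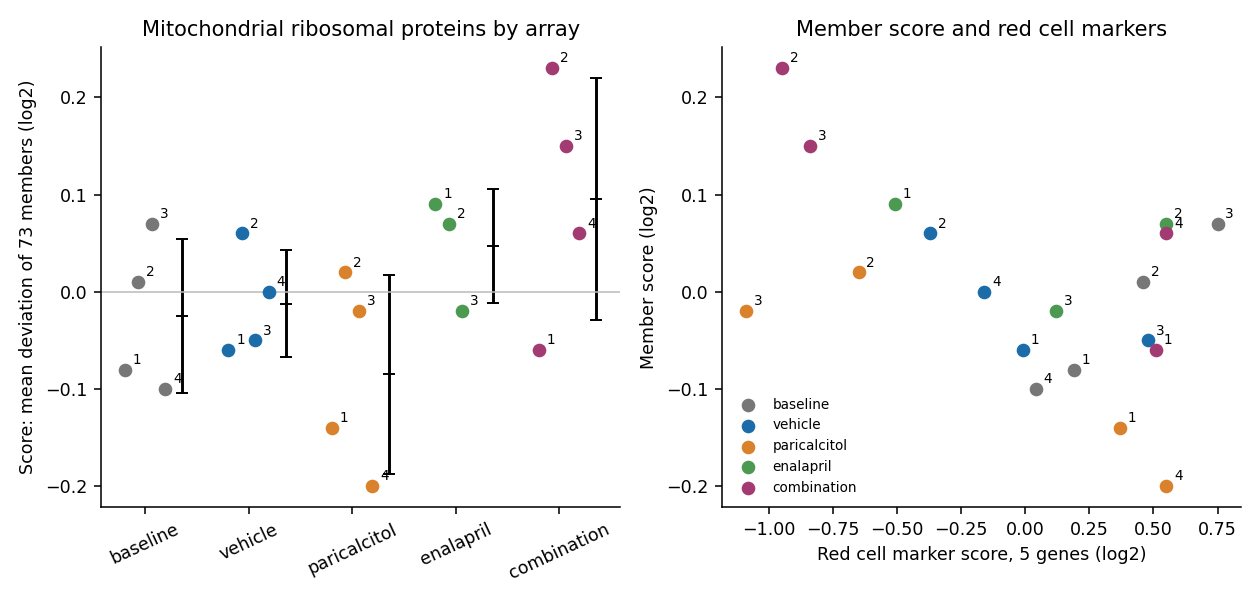
Left, the score of the 73 mitochondrial ribosomal protein genes on each array (mean log2 deviation), with the mean and SD of each group as a bar; numbers are replicates. Right, the same score against the score of 5 red cell markers; combination replicates 2 and 3 have the 2 highest member scores (0.23 and 0.15) and red cell scores of -0.95 and -0.84.

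**Figure D2:**
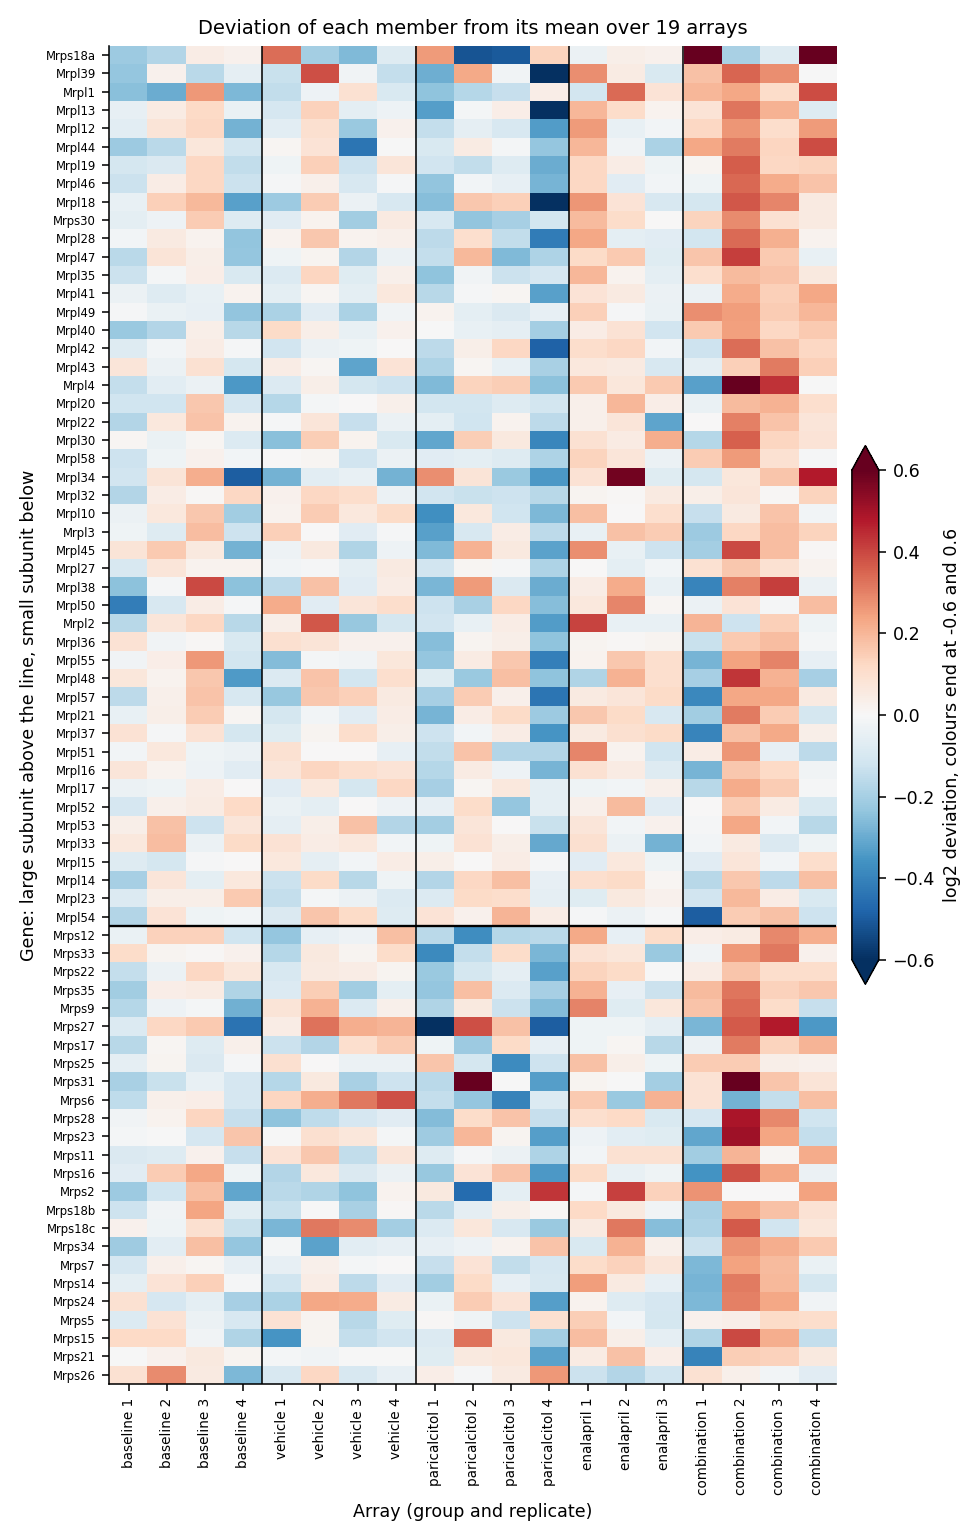
Log2 deviation of each of the 73 genes (rows, 48 of the large subunit above the line and 25 of the small below it, sorted by combination minus paricalcitol) from its own mean on each of the 19 arrays (columns). Combination replicate 2 is above the mean in 70 genes and paricalcitol replicate 4 in 8.

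The DNA upstream of the start is shown for 6 members on which the comparisons below turn. Upstream sequence from RefSeq (build GRCr8) was available for 59 of the 73. The window searched, on both strands, was 250 bases before to 50 after the annotated start, and each motif was counted on its own. Members have 1 window per gene. The motif shares set beside them count every annotated start, with 13242 windows for the 11733 measured genes. The ETS core CCGGAA, which GA-binding protein recognises, was in 32 of 59 member windows (54.2%), against 15% of all 33469 windows and 23% of those of genes measured here. The inner 8 bases of the palindrome recognised by nuclear respiratory factor 1 (CGCATGCG) were in 6 of 59 (10.2%), against 1.66% and 2.9%. The E-box CACGTG was in 6 of 59 (10.2%), against 6.42% and 8.62%. Median GC content was 56% in the members and 59.7% in genes measured here. Another gene started on the opposite strand within 500 bases upstream in 15 of 59 members (25.4%) and in 12.1% of 11733 measured genes. Mrpl46 and Mrps11 share such a region, with 234 bases between their starts. The stretches below end at the member's start, are cut where a neighbouring gene starts, and carry ETS cores (CCGGAA, or TTCCGG on the other strand) and palindromes in capitals.
Mrpl49: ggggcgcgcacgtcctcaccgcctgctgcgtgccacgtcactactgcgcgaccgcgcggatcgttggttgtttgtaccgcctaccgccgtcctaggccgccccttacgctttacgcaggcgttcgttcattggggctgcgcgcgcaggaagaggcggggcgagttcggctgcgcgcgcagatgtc
Mrpl40: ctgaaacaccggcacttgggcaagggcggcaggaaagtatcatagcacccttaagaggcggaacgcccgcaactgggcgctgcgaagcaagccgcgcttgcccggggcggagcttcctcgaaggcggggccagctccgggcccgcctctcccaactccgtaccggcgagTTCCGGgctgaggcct
Mrpl44: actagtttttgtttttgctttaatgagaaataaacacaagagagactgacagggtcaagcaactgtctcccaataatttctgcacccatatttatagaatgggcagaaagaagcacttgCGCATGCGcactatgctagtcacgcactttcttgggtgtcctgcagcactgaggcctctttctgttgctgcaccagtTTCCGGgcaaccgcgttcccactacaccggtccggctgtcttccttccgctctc
Mrpl32: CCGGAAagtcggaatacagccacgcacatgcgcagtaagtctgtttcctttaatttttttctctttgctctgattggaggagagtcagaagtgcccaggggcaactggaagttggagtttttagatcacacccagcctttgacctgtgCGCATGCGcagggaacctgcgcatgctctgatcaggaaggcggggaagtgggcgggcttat
Mrps30: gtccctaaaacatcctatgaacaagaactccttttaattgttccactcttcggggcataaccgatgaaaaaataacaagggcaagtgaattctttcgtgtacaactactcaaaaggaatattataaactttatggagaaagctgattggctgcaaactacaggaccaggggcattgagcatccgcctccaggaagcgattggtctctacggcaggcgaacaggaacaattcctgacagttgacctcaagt
Mrps6: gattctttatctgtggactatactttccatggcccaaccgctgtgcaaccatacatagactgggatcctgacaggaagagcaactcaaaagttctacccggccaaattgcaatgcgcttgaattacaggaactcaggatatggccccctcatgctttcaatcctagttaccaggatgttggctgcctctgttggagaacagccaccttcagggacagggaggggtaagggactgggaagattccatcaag
The stretch of Mrpl49 lies at chr1:212779328-212779512 on the minus strand, between its start and that of Fau, a gene for a cytosolic ribosomal protein, and holds 0 of either motif. That of Mrpl40 lies at chr11:95637566-95637750 on the plus strand, next to Hira, with 1 ETS core. Mrpl44 (chr9:88554800-88555049 on the plus strand) and Mrpl32 (chr17:55260442-55260650 on the plus strand, next to Psma2) each hold 1 core and 1 palindrome. Mrps30 (chr2:52195905-52196154 on the minus strand) and Mrps6 (chr11:44778417-44778666 on the plus strand) hold 0. A match is a run of letters and says nothing of binding in these hearts.

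The addition of enalapril to paricalcitol was read from the combination and the paricalcitol group. The level was higher in the combination in 69 of 73 members, against 48.2% of all genes, with a median difference of 0.18 (quartiles 0.12 and 0.26, range -0.16 to 0.44). Over all genes the median was 0.00 (quartiles -0.12 and 0.13). In limma 0 members passed, and 0% of all genes did (smallest adjusted p 0.174 in both). At an unadjusted p under 0.05 there were 29 of 73 members higher and 0 lower, against 5.13% and 3.91% of all genes. The groups did not overlap in 14 members, all higher in the combination, against 2.04% of all genes higher and 1.39% lower. The 4 members on the other side were Mrpl54 (-0.16, SE 0.12), Mrps26 (-0.07, SE 0.09), Mrpl23 (-0.01, SE 0.07) and Mrpl14 (-0.01, SE 0.10).

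Most genes of either subunit were higher in the combination. In the large subunit 45 of 48 genes were higher (median 0.20), and in the small subunit 24 of 25 (median 0.14). Members listed here as having bacterial counterparts (42 of 44 higher, median 0.17) and the rest, listed as specific to mitochondria (27 of 29, median 0.20), had similar values. The first list includes Mrpl55, whose placement was not checked. These differences between lists were not tested. With the red cell score as a covariate, 69 members were higher and the median stayed at 0.18. Without the 4 arrays of lowest red cell score, 65 were higher, with a median of 0.18. Without any single array the count was 64 to 71.

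Other markers also separated these groups. The 6 smooth muscle and pericyte markers were all lower in the combination (median -0.44), with summed intensities of 2324 to 2922 against 2972 to 4153 with paricalcitol, so the groups did not overlap. All 5 endothelial markers were lower too (median -0.17), with sums of 3647 to 4790 against 4342 to 5159. All 3 fat markers were lower as well (median -0.29). Of the 7 cardiomyocyte markers, 4 were higher (median 0.02). Among these marker genes, Adipoq and Plin1 were at the floor on 1 array each and the others on 0. The part of these markers in the shift of the ribosomal genes was not tested.

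Mrpl49, a large-subunit protein specific to mitochondria, had the smallest p of all members in this comparison. Its level was 9.86, 9.83, 9.73 and 9.78 in the combination, against 9.60, 9.52, 9.49 and 9.53 with paricalcitol. It was 9.39, 9.51, 9.39 and 9.56 in vehicle, 9.57, 9.54, 9.53 and 9.34 at baseline, and 9.72, 9.57 and 9.54 with enalapril. All 4 combination arrays were above every other array of the study. The difference from paricalcitol was 0.26 (SE 0.06, limma adjusted p = 0.174). A second, dimmer probe set for Mrpl49 gave 0.29 (SE 0.08) from paricalcitol and 0.22 (SE 0.08) from vehicle.

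Mrps22, a small-subunit protein specific to mitochondria, was at 9.17, 9.29, 9.23 and 9.23 in the combination, against 8.90, 9.02, 9.07 and 8.80 with paricalcitol. It was 9.03 to 9.18 in vehicle, 8.98 to 9.25 at baseline and 9.12 to 9.26 with enalapril. The paricalcitol arrays lay low, with replicates 2 and 3 reaching into the range of baseline and replicate 3 into that of vehicle, and the combination was not apart from the other groups. The difference was 0.29 (SE 0.06, limma adjusted p = 0.174). A second probe set for Mrps22, near the floor with a mean of 4.42, gave -0.22 (SE 0.28).

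Mrps30, which despite its name sits in the large subunit, was at 9.99, 10.14, 9.95 and 9.91 in the combination, against 9.76, 9.62, 9.66 and 9.75 with paricalcitol. Vehicle arrays were at 9.79, 9.88, 9.65 and 9.91, baseline arrays at 9.80, 9.83, 10.01 and 9.78, and enalapril arrays at 10.05, 9.97 and 9.86. The drug groups were ordered with paricalcitol lowest, and both groups given enalapril lay above it without overlap. The combination was higher than paricalcitol by 0.30 (SE 0.07, limma adjusted p = 0.174).

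Several other members had differences between 0.17 and 0.37 here, without overlap between the groups. They included Mrpl40 (0.25, SE 0.06), Mrpl58, a peptidyl-tRNA hydrolase built into the large subunit (0.22, SE 0.05), Mrpl35 (0.26, SE 0.06) and Mrpl19 (0.32, SE 0.08). Mrps12, a protein of the decoding centre, had 0.37 (SE 0.09), and Mrpl12, the stalk protein that recruits translation factors, had 0.35 (SE 0.10). Adjusted p in limma ran from 0.188 to 0.271 for these. Mrps18a had the largest difference (0.44, SE 0.22) but a wide spread, and its arrays overlapped. Its means were 9.19 ± 0.49 (SD, n = 4) in the combination and 8.75 ± 0.41 (SD, n = 4) with paricalcitol.

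**Figure D3:**
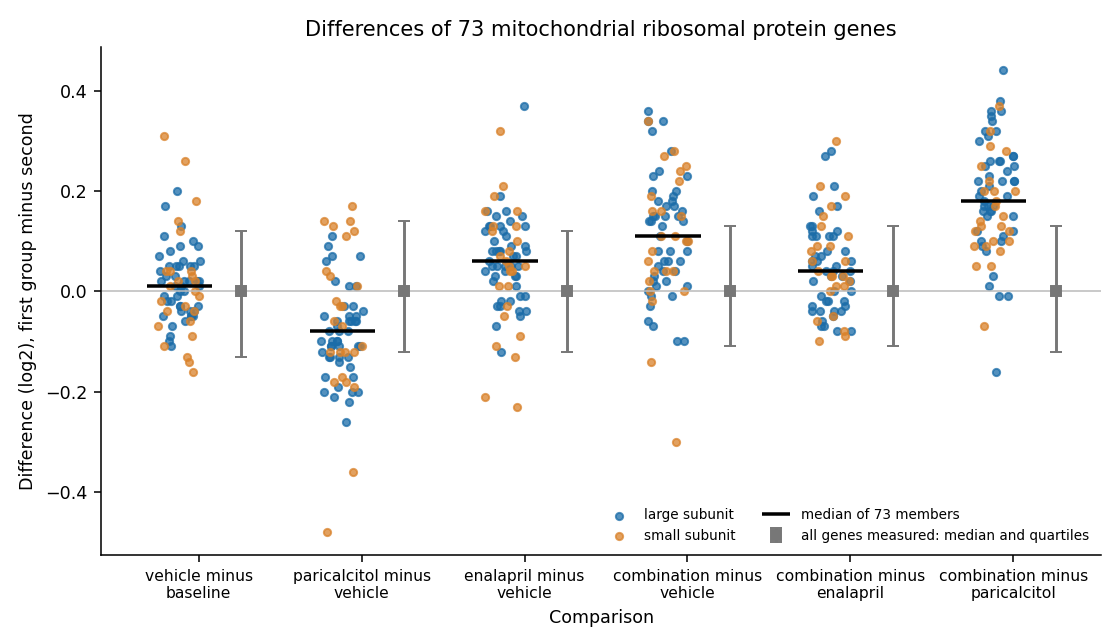
Log2 difference of each of the 73 genes in 6 comparisons (large subunit blue, small subunit orange), with the members' median as a black line and the median and quartiles of all genes as grey squares and bars. The members' median is 0.18 for combination minus paricalcitol and -0.08 for paricalcitol minus vehicle, while the median of all genes is 0.00 throughout.

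The joint effect of the drugs was read from the combination and the vehicle group. The level was higher in 62 of 73 members, against 50.9% of all genes, with a median difference of 0.11. No member passed in limma, and 0.00703% of all genes did. There were, at an unadjusted p under 0.05, 13 members higher and 1 lower, against 4.2% and 3.48% of all genes. In 6 members the groups did not overlap, all higher in the combination, against 2.31% of all genes higher and 1.92% lower. Without the 4 arrays of lowest red cell score, 39 members were higher and the median was 0.02. The summed intensity of the 7 cardiomyocyte markers was 97448 to 106544 in the combination and 91082 to 97085 in vehicle, without overlap. Only 4 of the 7 genes were higher (median 0.02), 1 of them at an unadjusted p under 0.05. Their differences were uneven, with quartiles of -0.02 and 0.05 but a range of -0.05 to 1.66. The separated sum is therefore not a shift of the whole marker list. All 3 fat markers were higher (median 0.37), with overlapping sums of 87 to 145 against 59 to 121. The part of these markers in the values of the ribosomal genes was not tested.

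Mrpl49 again had the smallest p among the members, and was the gene ranked 4 of all 14217. The difference from the vehicle arrays, whose values are given above, was 0.34 (SE 0.06, limma adjusted p = 0.0701). Without baseline replicate 4, whose level of 9.34 was low for its group, it passed (0.34, adjusted p = 0.034), along with 2 genes that are not members. Over 31 alternatives its adjusted p in limma ran from 0.034 to 1. Mrpl44, a large-subunit protein with a fold like that of an RNA-cutting enzyme, was at 9.00, 9.08, 8.90 and 9.16 in the combination and at 8.78, 8.85, 8.33 and 8.77 in vehicle. With paricalcitol it was 8.68, 8.82, 8.76 and 8.54. The combination arrays lay above those of vehicle, paricalcitol and baseline without overlap, and vehicle replicate 3 was far below its group. The difference from vehicle was 0.36 (SE 0.11, limma adjusted p = 0.489).

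Mrpl58 was at 10.11, 10.21, 10.05 and 9.95 in the combination and at 9.96, 9.97, 9.84 and 9.92 in vehicle, so the groups overlapped. Its difference was 0.16 (SE 0.05, limma adjusted p = 0.516). Mrps30 had 0.19 (SE 0.07) and Mrpl12 0.23 (SE 0.10). Mrps6, a small-subunit protein with a bacterial counterpart, was the 1 member lower at an unadjusted p under 0.05, with a difference of -0.30 (SE 0.11, limma adjusted p = 0.55).

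Paricalcitol without enalapril was compared with vehicle injections. The level was lower with paricalcitol in 56 of 73 members and higher in 17, or 23.3%, against 49.4% of all genes, with a median difference of -0.08. In limma 0 members passed, and 0.0141% of all genes did. At an unadjusted p under 0.05 there were 6 members lower and 0 higher, against 4.8% and 4.84% of all genes. The groups did not overlap in 3 members, all lower with paricalcitol, against 2.55% of all genes lower and 2.5% higher. With each array centred on its median in place of quantile normalization, 4 members were higher and the median was -0.21, against -0.08 for all genes, and Mrpl16, a large-subunit protein with a bacterial counterpart, passed (-0.35, SE 0.07, adjusted p = 0.0391). Under that setting 0.499% of all genes passed. With quantile normalization Mrpl16 had -0.20 (SE 0.08, limma adjusted p = 0.445), and over 31 alternatives its adjusted p ran from 0.0391 to 0.877.

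Mrps6 had the smallest p. Its level was 10.65, 10.56, 10.39 and 10.71 with paricalcitol and 10.92, 11.01, 11.11 and 11.18 in vehicle, without overlap. The difference was -0.48 (SE 0.11, limma adjusted p = 0.142), the largest of any member in this comparison. Mrpl32, a large-subunit protein with a bacterial counterpart, was at 9.73, 9.71, 9.72 and 9.68 with paricalcitol and at 9.87, 9.97, 9.95 and 9.81 in vehicle. Its paricalcitol arrays had an SD of 0.02 and lay below every vehicle, enalapril and combination array. The difference was -0.19 (SE 0.05, limma adjusted p = 0.221). Mrps22 had -0.18 (SE 0.06), with paricalcitol replicate 3 (9.07) above vehicle replicate 1 (9.03).

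In this comparison marker lists also differed between the groups. All 6 smooth muscle and pericyte markers were higher with paricalcitol (median 0.35), with overlapping sums of 2972 to 4153 against 2509 to 3029. All 5 endothelial markers were higher too (median 0.29), with sums of 4342 to 5159 against 3792 to 4031, without overlap. All 3 fat markers (median 0.44), 5 of 6 fibroblast (median 0.17), 5 of 6 macrophage (median 0.18) and 3 of 4 T cell markers (median 0.27) were higher. Of the 7 cardiomyocyte markers, 6 were higher (median 0.02). All 5 red cell markers were lower (median -0.14). Their part in the values of the ribosomal genes was not tested. Without the 4 arrays of lowest red cell score, which leaves paricalcitol replicates 1 and 4, the members' median was -0.17, with 12 higher. Mrpl36 (-0.30, SE 0.05, limma adjusted p = 0.0337) and Mrps27 (-0.81, SE 0.15, adjusted p = 0.046) then passed, as did 0.45% of all genes. With all arrays they had -0.17 (SE 0.07, adjusted p = 0.485) and -0.36 (SE 0.24, adjusted p = 0.66), and over 31 limma alternatives the adjusted p ran up to 0.946 for Mrpl36 and 0.954 for Mrps27.

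Enalapril at the low dose was compared with vehicle. The level was higher with enalapril in 55 of 73 members, against 53.4% of all genes, with a median difference of 0.06. No member passed in limma, and 0% of all genes did. There was, at an unadjusted p under 0.05, 1 member higher and 0 lower, against 2.71% and 2.93% of all genes. The groups did not overlap in 4 members in each direction, against 4.33% of all genes higher and 4.2% lower. Mrpl49 had a difference of 0.15 (SE 0.06), with enalapril replicate 3 (9.54) inside the range of vehicle, and Mrps30 had 0.16 (SE 0.08). Mrps2, a small-subunit protein with a bacterial counterpart, was at 9.29, 9.71 and 9.44 with enalapril and at 9.14, 9.12, 9.06 and 9.32 in vehicle (0.32, SE 0.17, adjusted p = 0.907). Markers of other cells differed too: all 6 smooth muscle and pericyte markers were higher (median 0.21, sums of 2675 to 3822 against 2509 to 3029), as were 5 of 6 macrophage markers (median 0.34, 1567 to 1998 against 1316 to 1642). All 4 T cell markers were higher (median 0.52, 2 at an unadjusted p under 0.05), with sums of 103 to 159 against 37 to 121, and Cd3g was at the floor on 8 of the 19 arrays. All 3 fat markers were higher as well (median 0.20, 86 to 110 against 59 to 121). Their part in the values of the ribosomal genes was not tested. In the deposited values without equalisation the members' median was 0.25, where that of all genes was 0.17.

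The addition of paricalcitol to enalapril was read from the combination and the enalapril group. The level was higher in the combination in 50 of 73 members, against 49.8% of all genes, with a median difference of 0.04. In limma 0 members passed, and 0% of all genes did. At an unadjusted p under 0.05 there were 4 members higher and 0 lower, against 3.02% and 2.28% of all genes, and 5 members did not overlap, all higher, against 2.77% of all genes higher and 2.17% lower. The smallest p was that of Mrpl49, whose lowest combination array (9.73) was just above its highest enalapril array (9.72), with a difference of 0.19 (SE 0.06, limma adjusted p = 0.908). Mrpl40, a large-subunit protein specific to mitochondria, was at 10.15, 10.24, 10.12 and 10.15 in the combination and at 10.04, 10.08 and 9.88 with enalapril (0.16, SE 0.07, adjusted p = 0.908). Mrpl27, a protein near the site of peptide bond formation, had 0.11 (SE 0.05). The direction of the list depended on the processing: 10 members were higher in the deposited values without equalisation (median -0.12, that of all genes -0.11), and 28 without the 4 arrays of lowest red cell score (median -0.06). Mrpl27 turned to -0.05 without equalisation. Smooth muscle and pericyte markers had lower levels in the combination in 6 of 6 genes (median -0.23, sums of 2324 to 2922 against 2675 to 3822). All 4 T cell markers were lower too (median -0.34, 75 to 94 against 103 to 159, without overlap), and their part was not tested.

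Whether each drug's difference depended on the other drug was tested as an interaction, the difference of the combination from enalapril minus that of paricalcitol from vehicle. It was above 0 in 61 of 73 members, against 48.6% of all genes, with a median of 0.13. No member passed in limma, and 0% of all genes did. There were 9 members above 0 at an unadjusted p under 0.05 and 0 below, against 3.8% and 3.14% of all genes. The smallest p-values were those of Mrpl40 (0.28, SE 0.09, limma adjusted p = 0.498), Mrpl32 (0.23, SE 0.08, adjusted p = 0.539) and Mrpl27 (0.18, SE 0.07, adjusted p = 0.615). Without equalisation the members' median was 0.00 with 37 above 0, and that of all genes was -0.14. Below 0 lay all 6 smooth muscle and pericyte markers (median -0.65, 2 at an unadjusted p under 0.05), all 5 endothelial (median -0.26), all 4 T cell (median -0.51, 2 at an unadjusted p under 0.05), all 3 fat (median -0.39) and 5 of 6 macrophage markers (median -0.43). Their part in the members' values was not tested. These comparisons share arrays, so their values are not independent of each other.

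**Figure D4:**
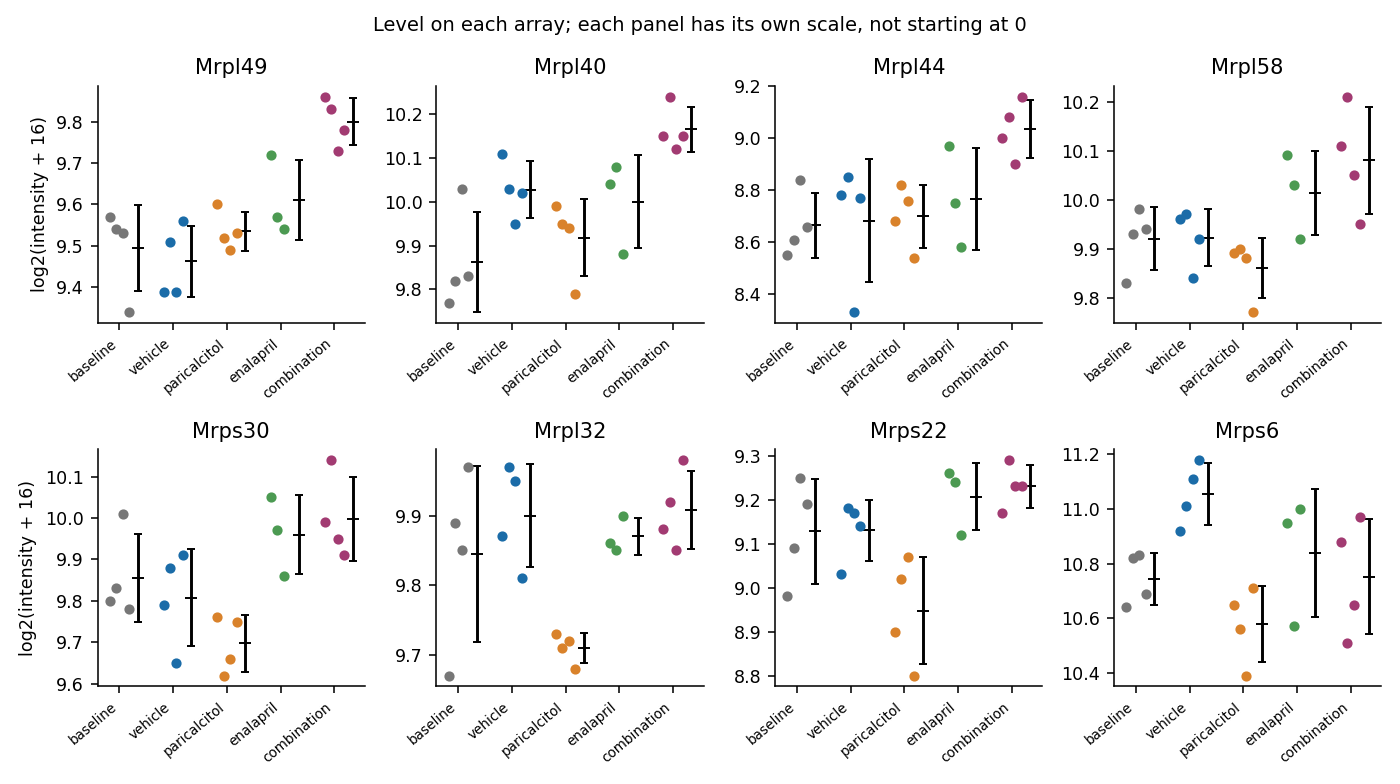
Level of 8 members on each array by group (points, replicates in order from left) with the mean and SD of each group as a bar, on log2 scales that differ between panels and do not start at 0. The 4 combination arrays of Mrpl49 lie above all others, and the 4 paricalcitol arrays of Mrpl32 lie between 9.68 and 9.73.

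Time on high salt without a drug was read from the vehicle and baseline groups, taken 4 weeks apart. Age, weeks of salt and injections changed together, so they cannot be told apart. The level was higher in vehicle in 42 of 73 members, against 47.1% of all genes, with a median difference of 0.01. In limma 0 members passed, and 0.0844% of all genes did. There were, at an unadjusted p under 0.05, 2 members higher and 0 lower, against 4.15% and 5.05% of all genes. Mrps6 was at 10.64, 10.82, 10.83 and 10.69 at baseline, below all 4 vehicle arrays, with a difference of 0.31 (SE 0.11, limma adjusted p = 0.382). It was the 1 member without overlap, where 3.75% of all genes were higher and 4.02% lower without overlap. Mrpl40 had 0.17 (SE 0.06, adjusted p = 0.386) and was at -0.03 in the deposited values without equalisation. Mrpl50, a large-subunit protein specific to mitochondria, had 0.20 (SE 0.11), with baseline arrays at 9.69, 10.01, 10.15 and 10.10 and vehicle arrays at 10.33, 10.04, 10.18 and 10.21, which overlapped. The count of members higher depended on the processing, with 3 in the deposited values without equalisation (median -0.19, that of all genes -0.20), 26 with the red cell score as a covariate, and 27 without baseline replicate 1. Red cell markers were lower in vehicle in 5 of 5 genes (median -0.38), and fibroblast markers in 5 of 6 (median -0.50, sums of 18483 to 22478 against 22168 to 31545). So were 5 of 6 smooth muscle and pericyte (median -0.19), 4 of 5 endothelial (median -0.14), 5 of 6 macrophage (median -0.27) and 3 of 3 fat markers (median -0.45). Apart from the red cell covariate above, their part was not tested.

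The other members of a fixed panel had these group means. Mrpl3, of the large subunit, had means of 10.84 ± 0.14 (SD, n = 4) at baseline, 10.88 ± 0.09 in vehicle, 10.72 ± 0.15 with paricalcitol, 10.95 ± 0.12 with enalapril (n = 3) and 10.91 ± 0.19 in the combination. Mrps5 ran from 8.79 ± 0.11 in vehicle to 8.90 ± 0.05 in the combination, and Mrps34 from 9.24 ± 0.14 in vehicle to 9.48 ± 0.18 in the combination. Mrps14 and Mrps16, both of the small subunit with bacterial counterparts, ran from 10.29 ± 0.09 (vehicle) to 10.45 ± 0.15 (enalapril) and from 10.65 ± 0.25 (paricalcitol) to 10.80 ± 0.15 (baseline). Mrpl41, of the large subunit, had 10.60 ± 0.16 with paricalcitol and 10.86 ± 0.13 in the combination, a difference of 0.26 (SE 0.07, limma adjusted p = 0.245). For Mrps34 the difference between combination and vehicle was 0.24 (SE 0.11, limma adjusted p = 0.629). The smallest F test p of these 6 was 0.0301, for Mrpl41 (adjusted p = 0.414). The 3 relatives Mrps18a, Mrps18b and Mrps18c had adjusted p of 0.784, 0.821 and 1.

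For 18 members more than 1 probe set named the gene, and 5 of these had probe sets of opposite sign in a comparison where 1 of them had an unadjusted p under 0.05. They were Mrpl37, Mrpl51, Mrps18c, Mrps22 and Mrps27. For Mrpl37 in paricalcitol against vehicle, the chosen probe set (mean level 10.86) gave -0.13 (SE 0.11), one of mean 8.62 gave -0.57 (SE 0.21), and one at the floor on 13 arrays gave 0.30 (SE 0.21). For Mrps18c they gave -0.12 (SE 0.15), -0.33 (SE 0.12) and 0.24 (SE 0.32), and for Mrps27 -0.36 (SE 0.24), -0.41 (SE 0.19) and 0.09 (SE 0.44), the last at the floor on 15 arrays. Except for Mrpl51, the probe set of opposite sign was thus near the floor. The chosen probe set of Mrpl51 (mean 10.20) gave -0.10 (SE 0.10), and another of mean 7.24 gave 0.22 (SE 0.10).

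Related genes were measured in the same comparisons. For the combination against paricalcitol, their counts stand beside 48.2% of all genes higher and 5.13% higher at an unadjusted p under 0.05, and 0 passed in any of these lists. All 5 mitochondrial ribosomal proteins with other names (Dap3, Chchd1, Aurkaip1, Ptcd3 and Gadd45gip1) were higher (median 0.24), 3 of them at an unadjusted p under 0.05. Of 14 translation factors of mitochondria such as Tufm and Gfm1, 13 were higher (median 0.16), 2 at that threshold. Mitochondrial aminoacyl-tRNA synthetases, which load tRNAs, were higher in 14 of 16 (median 0.22), 7 at that threshold. Genes of ribosome assembly and rRNA modification were higher in 13 of 20 (median 0.07), 5 at that threshold, and those of mitochondrial transcription and DNA in 7 of 10 (median 0.10), 2 at that threshold. Subunits of the respiratory chain and ATP synthase were higher in 52 of 78 (median 0.03), with 5 higher and 1 lower at that threshold. Cytosolic ribosomal proteins were higher in 11 of 43 (median -0.04), with 0 higher at that threshold. The median level of these last lists was 12.83 and 12.58, and no difference between lists was tested.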

How the data were processed

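Left ventricles of 19 rats were measured on 19 Affymetrix arrays, 1 per rat, from 5 ug of total RNA with integrity numbers above 9, per the labels. The deposited values are linear probe set intensities, 1 column per array; how the authors summarised and scaled them is not given in the sources used here. Array medians ran from 43.57 to 72.56, so the arrays were equalised. Arrays were quantile normalized, negative values were then set to 0 and log2(value + 16) was taken, which understates differences of dim genes. Of 31099 probe sets, 20826 named 1 gene, giving 14217 genes. Gene names come from the platform's annotation, and all 73 member gene IDs carry the same symbol in RefSeq.

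Group means were fitted with limma 3.58.1 (R 4.3.3) over all 19 arrays, with a variance trend and 14 residual degrees of freedom. Adjusted p-values (Benjamini-Hochberg over all genes, threshold 0.05) come from this fit. The fit was also run on simulated data with independent genes and shifts larger than any member's difference here. That run does not show how well differences as small as those of the members are found. Each difference is the first group minus the second. The precision is limited by 3 or 4 arrays per group. Members, lists and comparisons were chosen with earlier results of these data known. Named are members past the threshold, the 3 of smallest p per comparison and the 6 of smallest F test p, the 5 brightest and 5 dimmest, a fixed panel of 15, and members whose probe sets disagree. Mrpl54, Mrps26, Mrpl23, Mrpl35, Mrpl19, Mrpl36, Mrpl16 and Mrps11 fall outside this rule and were named after their values were seen. Alternatives changed the equalisation, pseudocount, filter, trend, arrays fitted, probe set, block, covariate, array weights or arrays used.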

Additional observations from a re-analysis of the deposited data

Results flagged for a closer look

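Groups of 4 arrays were tested for a far array, for each named member and for the member score. In 8 of 128 such groups, all of named members, 1 array lay far from the other 3 (Dixon's test at the 95% level, which chance flags in about 1 in 20 groups). In the combination, Mrpl3 was at 10.64 on replicate 1 against 10.98 to 11.04 on the others, and Mrps31 at 9.02 on replicate 2 against 8.48 to 8.57. With paricalcitol, Mrpl51 was at 10.37 on replicate 2 against 10.02 to 10.05, Mrps12 at 9.14 on replicate 2 against 9.34 to 9.35, and Mrpl58 at 9.77 on replicate 4 against 9.88 to 9.90. In vehicle, Mrpl44 was at 8.33 on replicate 3 against 8.77 to 8.85, and Mrps34 at 9.03 on replicate 2 against 9.29 to 9.34. At baseline, Mrpl49 was at 9.34 on replicate 4 against 9.53 to 9.57.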

How the results depend on the processing

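Combination minus paricalcitol kept its direction under every alternative run: 65 to 72 members were higher, with medians of 0.17 to 0.26, and 64 to 71 (0.13 to 0.25) when each array was left out. Without equalisation, the median was -0.19 for vehicle minus baseline (3 members higher; Mrpl40 at -0.03), 0.25 for enalapril minus vehicle, -0.12 for combination minus enalapril (10 higher; Mrpl27 at -0.05) and 0.00 for the interaction (37 above 0). With arrays centred on their medians, it was -0.21 for paricalcitol minus vehicle (4 higher, 1 passing) and 0.23 for the interaction. Without the 4 arrays of lowest red cell score, chosen after seeing the data, it was -0.17 for paricalcitol minus vehicle (2 passing), 0.02 for combination minus vehicle (39 higher) and -0.06 for combination minus enalapril (28 higher). With the red cell score as a covariate, 26 members were higher in vehicle than at baseline. The cause of these changes was not tested.

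With each array left out, 27 to 49 members were higher in vehicle than at baseline, and 0 to 1 passed for combination minus vehicle, where Mrpl49 passed at 0.34 without baseline replicate 4. The number of all genes passing for vehicle minus baseline was 12; it ran from 3 to 160 over the other alternatives and from 0 to 35 with each array left out. For paricalcitol minus vehicle it was 2, and ran from 1 to 71 and from 0 to 10. The labels do not pair rats by number: in 1 of 10 pairs of groups (paricalcitol and combination, 0.15 to 0.33) were all same-numbered correlations above 0.1. The replicate block changed no call; combination minus paricalcitol kept 69 members higher and a median of 0.18.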
